A study of Mus musculus with 5 samples.

Results

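The genes described here were 39 genes of glycolysis and of the hypoxia-inducible factor (HIF) system. They were chosen by symbol, as rows of the deposited count and TPM tables (TPM, a unit that scales counts by gene length and library total). All 39 symbols were found among the 49315 genes of those tables, 30203 of which had any count. By role they were 8 HIF subunits and regulators, 18 glycolytic enzymes, 2 enzymes of fructose-2,6-bisphosphate turnover, 4 glucose and lactate transporters, 2 pyruvate dehydrogenase kinases and 5 other hypoxia-responsive genes. The study sequenced poly(A) RNA of mouse lung endothelial cells. WT libraries (n = 3) came from wild-type mice and TET2KO libraries (n = 2) from mice in which TET2, an enzyme that oxidises methylated cytosine in DNA, was knocked out in endothelial cells. Angiotensin II, a peptide that constricts vessels, had been infused into mice of both genotypes for 28 days, so every value belongs to the infused state. The driver of the endothelial knockout, the deleted exons, the age of the mice and the method of cell isolation were not given in the sources used here. Whether the libraries stem from separate animals was not stated either, so each p-value rests on a spread among libraries that may be technical in part.

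HIFs are transcription factors made of an oxygen-sensitive alpha subunit and a constitutive partner, ARNT. In the presence of oxygen, prolyl hydroxylases of the EGLN family mark the alpha subunit for ubiquitination by the VHL complex and for degradation. When oxygen is low the alpha subunits persist, and genes for glucose uptake, glycolysis, lactate production and angiogenesis are transcribed from sites with a core ACGTG. Lung endothelium is known for high expression of Epas1, and endothelial cells as a class rely strongly on glycolysis for energy.

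Total counts ranged from 27346804 to 35440257 per library. Levels are given either as CPM (counts relative to the library total, scaled by the TMM method and used to compare libraries) or as TPM (used to compare genes). The labelled cell type was checked with 12 endothelial markers, all counted in every library, whose summed level was 2145 to 3725 CPM in WT and 4907 to 4920 CPM in TET2KO. Macrophage markers were also present. The 9 measured ones (Siglecf was not matched) summed to 3374 to 38053 CPM in WT and 4918 to 9160 CPM in TET2KO, and none was at 0 in any library. The highest of these sums belonged to WT replicate 2, which held the highest level of 8 of the 9 macrophage markers and the lowest endothelial sum. Lyz2 (18223 CPM) and Chil3 (15529 CPM) made up most of it. The range over the libraries differed among the markers, from 2.01-fold for Csf1r to 16.6-fold for Chil3. C1qa went the other way, at 21.7, 10.8 and 13.25 CPM in WT and 25.5 and 34.0 CPM in TET2KO. Results that rest on WT replicate 2 are given with and without it. Tet2 was 141, 174 and 131 CPM in WT and 139 and 162 CPM in TET2KO, with a log2 fold change of 0.022 (SE 0.19). Since a count over the whole gene can include transcripts that lack the deleted part, it does not check the genotype. The authors' deposited comparison grouped WT replicate 3 with the TET2KO libraries, as described at the end, and the labels are followed here.

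No member passed the test between genotypes. With edgeR's quasi-likelihood F test and p-values adjusted by Benjamini-Hochberg over the 18727 genes tested, 0 genes (0%) had an adjusted p under 0.05, and the lowest adjusted p was 0.740. At an unadjusted p under 0.05 stood 1098 genes (5.86%), of which 997 (5.32% of the genes tested) lay higher in TET2KO, and 1 of the 39 members, Epas1. DESeq2 gave an adjusted p under 0.05 to 60 of 17634 genes (0.34%) and to 0 members, and limma on log2(TPM + 1) to 0 genes. All 39 members had passed the filter on low counts. Of them, 13 had a log2 fold change above 0 and 26 below, with a median of -0.22, beside 41.6% of all genes above 0 and a median of -0.08.

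In CPM, 4 members had both TET2KO libraries above every WT library (Epas1, Hif3a, Pfkm and Eno2), beside 2329 of all genes tested (12.4%). Both lay below every WT library for 7 members (Vhl, Egln1, Gpi1, Pfkl, Pgk1, Eno1 and Slc2a1), beside 2315 genes (12.4%), and the other 28 members overlapped between genotypes. These counts moved with the scale. In TPM, 8 members lay above, beside 3889 of all genes tested (20.8%), and 2 below (Gpi1 and Eno1), beside 430 genes (2.3%). The 4 members above in CPM were among the 8, beside Hk1, Pfkfb3, Slc16a3 and Ndrg1. The TMM factors of the libraries ran from 0.835 in WT replicate 2 to 1.06 in TET2KO. Scaling by library totals alone moved the median log2 fold change of all genes from -0.08 to 0.06, and log2(TPM + 1) moved it to 0.13. The members then divided into 17 above 0 and 22 below, and into 20 and 19.

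Epas1, which encodes the HIF alpha subunit prominent in endothelium, had the smallest p of the set and the highest mean TPM in both genotypes. The gene lies at chr17:86753700-86833410 on the plus strand of GRCm38. Its level was 778, 707 and 1043 TPM in the WT libraries and 1714 and 1826 TPM in the TET2KO libraries. In CPM the values were 1181, 1425 and 1630 in WT and 2491 and 2658 in TET2KO. On either scale both TET2KO libraries stood above the highest WT library, and the gap between the groups exceeded the spread within each. The log2 fold change was 0.87 (SE 0.26), with an edgeR p of 0.0184 unadjusted and 0.744 adjusted, so the difference did not pass the test across all genes. Without WT replicate 2 it was 0.90 (SE 0.27), and without WT replicate 3 it was 1.01.

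Hif1a, the gene of the alpha subunit found in most cell types, did not follow Epas1. Its level was 66.4, 72.9 and 83.3 TPM in WT and 77.1 and 68.9 TPM in TET2KO, and the groups overlapped. In CPM it was 112, 163 and 145 in WT and 124 and 111 in TET2KO, with a log2 fold change of -0.25 (SE 0.21; adjusted p = 0.864 by edgeR). The ratio of Epas1 to Hif1a in TPM, taken within each library, was 11.7, 9.70 and 12.5 in WT and 22.2 and 26.5 in TET2KO. The mean ratio was 11.3 ± 1.45 (SD, n = 3) in WT and 24.4 ± 3.02 (SD, n = 2) in TET2KO, and the groups did not overlap. With 3 libraries against 2, the smallest p that an exact two-sided permutation test can give is 0.1, so that test could not reach 0.05 here.

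**Figure D1:**
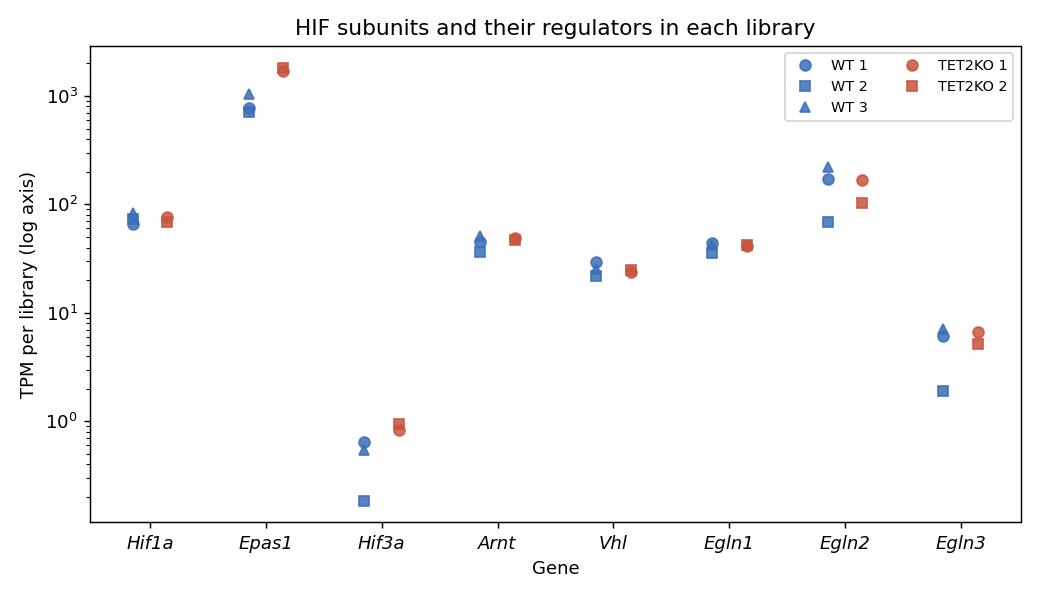
TPM in each library (log axis) of the 8 HIF subunits and regulators, with WT in blue and TET2KO in red and 1 symbol shape for each replicate number. Epas1 stands highest in all 5 libraries, at 707 to 1043 TPM in WT and 1714 to 1826 TPM in TET2KO. In TPM, WT replicate 2 is the lowest point of every gene except Hif1a. In CPM, WT replicate 2 is the lowest library for 3 of the 8 genes (37.5%), beside 32.9% of all genes tested.

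The endothelial markers were higher in the TET2KO libraries together with Epas1. All 12 had a log2 fold change above 0, from 0.59 to 1.03 with a median of 0.77, and each had both TET2KO libraries above the highest WT library. Their summed level was 2890, 2145 and 3725 CPM in WT and 4920 and 4907 CPM in TET2KO. Expressed per 100 CPM of these markers, Epas1 was 40.9, 66.4 and 43.8 in WT and 50.6 and 54.2 in TET2KO. On this scale the genotypes overlapped, with means of 50.3 ± 14.0 (SD, n = 3) and 52.4 ± 2.5 (SD, n = 2), and WT replicate 2 was the highest library. The overlap rested on that library, since both TET2KO values lay above those of WT replicate 1 and WT replicate 3. The part of the endothelial marker level in the Epas1 difference was not tested further, and in RNA from a bulk isolate a different number of cells of a type cannot be told apart from a different amount of RNA per cell.

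**Figure D2:**
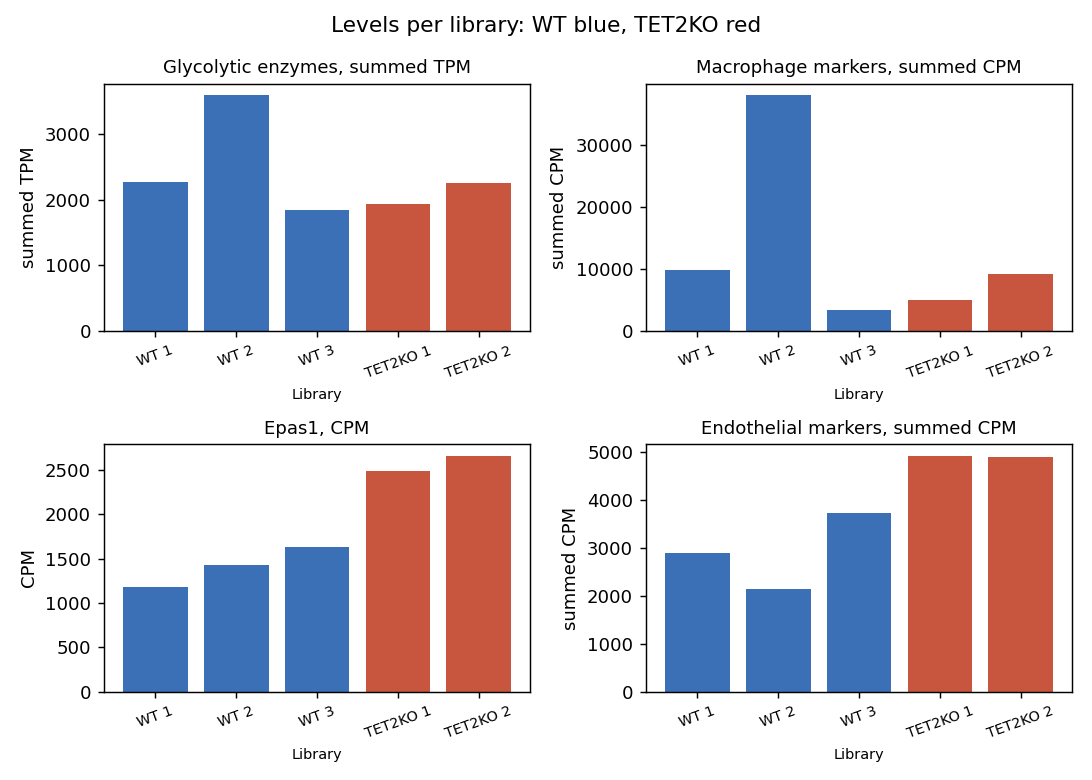
Bars give, for each library, the summed TPM of the 18 glycolytic enzymes, the summed CPM of 9 macrophage markers, the CPM of Epas1 and the summed CPM of 12 endothelial markers, with WT in blue and TET2KO in red. WT replicate 2 has the highest enzyme sum (3595 TPM) and macrophage marker sum (38053 CPM), while Epas1 and the endothelial markers are highest in both TET2KO libraries.

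Hif3a, whose product can act as an inhibitory alpha subunit, was near the lower limit of what was tested. It stood at 1.23, 0.473 and 1.08 CPM in WT and 1.54 and 1.72 CPM in TET2KO, and the groups did not overlap. Its log2 fold change of 0.81 (SE 0.46) became 0.53 (SE 0.33) without WT replicate 2, the library where it was lowest. Arnt, the constitutive partner, varied little, from 102, 110 and 120 CPM in WT to 107 and 103 CPM in TET2KO. Among all members only Hk1 had a smaller ratio of the highest to the lowest library (1.15) than Arnt (1.17).

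The genes that lead to degradation of the alpha subunits differed less than Epas1. Vhl, the substrate receptor of the ubiquitin ligase, was 25.4, 24.6 and 22.5 CPM in WT and 19.4 and 20.6 CPM in TET2KO, with a log2 fold change of -0.28 (SE 0.16). Egln1, the main oxygen-sensing prolyl hydroxylase in most tissues, was 45.2, 48.4 and 44.5 CPM in WT and 41.1 and 41.3 CPM in TET2KO, with a log2 fold change of -0.16 (SE 0.14). For both genes the TET2KO libraries were the lowest in CPM. In TPM the groups overlapped for both, at 29.6, 21.7 and 25.5 against 23.6 and 25.0 for Vhl and at 44.0, 35.4 and 42.0 against 41.8 and 41.9 for Egln1.

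Egln2 and Egln3, the other members of the hydroxylase family, varied more within a genotype than between genotypes. Egln2 was 139, 72.8 and 181 CPM in WT and 129 and 79.9 CPM in TET2KO. Egln3, which HIF itself induces in many cells, was 4.70, 1.93 and 5.59 CPM in WT and 4.83 and 3.76 CPM in TET2KO. WT replicate 2 was the lowest library for both. Egln2 was the only member whose 5 libraries stood in the order of the B cell marker sum (968 to 4029 CPM in WT, 1684 to 2737 CPM in TET2KO), which held for 5.21% of all genes tested. The T and NK cell marker sum (105 to 233 CPM in WT, 169 to 197 CPM in TET2KO) ranked the libraries in the same order. The 8 regulators together had a median log2 fold change of -0.12, with 3 above 0 and 5 below. Library totals moved this median to 0.025 and log2(TPM + 1) to 0.10.

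The glycolytic enzymes showed a different layout, in which a single WT library stood apart. Of the 18 enzymes, 14 (77.8%) had their highest CPM in WT replicate 2, beside 35% of all genes tested. The other 4 were highest in a TET2KO library (Hk1, Pfkm, Eno2 and Ldhb), and none was highest in WT replicate 1 or WT replicate 3. The TPM of the 18 genes summed to 2276, 3595 and 1838 in WT and to 1931 and 2262 in TET2KO. Apart from WT replicate 2, the sums of the 2 genotypes overlapped.

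Their median log2 fold change was -0.47, with 4 of 18 above 0 and 14 below. Without WT replicate 2 the median was 0.0092, with 11 of 18 above 0 and a range from -0.18 to 0.78. The median of all genes tested was then 0.0049. The regulators did not change in this way, with a median of -0.10 without that library. The macrophage marker sum of WT replicate 2 was 38053 CPM, against 3374 to 9829 CPM in the other 4 libraries, and its part in the enzyme levels was not tested.

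Some promoters of the enzymes that were highest in WT replicate 2 are shown with that of Hif1a, picked because they carry the core letters of the HIF response element. They are the 250 bases before an annotated transcript start, from RefSeq on GRCm38.p6, written 5′ to 3′ on the strand of the gene, with each ACGTG, or CACGT for the opposite strand, in capitals. Where CACGTG is spelled, both strands match and overlap. None of these windows overlapped an annotated exon. Those of Hk2 and Pgk1 ended directly at the annotated gene, and those of Ldha and Hif1a lay inside the annotated span of their gene, before an internal start.
Ldha, chr7:46845554-46845803, plus strand, 5 matches: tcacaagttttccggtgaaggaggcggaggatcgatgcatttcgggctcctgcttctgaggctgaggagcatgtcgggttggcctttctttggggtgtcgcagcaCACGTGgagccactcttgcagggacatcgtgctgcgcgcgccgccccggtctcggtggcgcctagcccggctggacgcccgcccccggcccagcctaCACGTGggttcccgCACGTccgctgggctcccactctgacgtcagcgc
Pgk1, chrX:106186850-106187099, plus strand, 2 matches: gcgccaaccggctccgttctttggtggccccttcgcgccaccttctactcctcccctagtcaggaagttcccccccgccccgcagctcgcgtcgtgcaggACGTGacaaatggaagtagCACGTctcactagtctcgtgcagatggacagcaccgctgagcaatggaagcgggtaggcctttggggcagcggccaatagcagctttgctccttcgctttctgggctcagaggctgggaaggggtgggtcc
Hk2, chr6:82774455-82774704, minus strand, 2 matches: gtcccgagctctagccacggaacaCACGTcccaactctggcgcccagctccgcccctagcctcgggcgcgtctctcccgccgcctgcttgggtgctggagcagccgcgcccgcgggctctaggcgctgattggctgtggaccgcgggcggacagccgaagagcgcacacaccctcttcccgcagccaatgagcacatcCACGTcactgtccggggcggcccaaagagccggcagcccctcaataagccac
Hif1a, chr12:73907617-73907866, plus strand, 3 matches: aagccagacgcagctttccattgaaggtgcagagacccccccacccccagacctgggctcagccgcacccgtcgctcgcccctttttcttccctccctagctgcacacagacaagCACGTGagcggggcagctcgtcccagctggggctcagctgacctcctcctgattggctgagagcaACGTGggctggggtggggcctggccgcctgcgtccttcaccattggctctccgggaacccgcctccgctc
Promoter windows were found for 36 of the 39 members, with none for Epas1, Ndrg1 and Slc2a3. Over windows of 300 bases, 250 before and 50 after the start, 23 of the 36 members (63.9%) had ACGTG on either strand in at least 1 window, beside 5886 of 27025 genes (21.8%). The letters are richer in C and G than the average window, and the median GC content was 62.3% in the members' windows and 52.7% in all windows. They were found for 11 of 18 enzymes, 4 of 7 regulators, 3 of 3 transporters and 0 of 2 pyruvate dehydrogenase kinases. Of the enzymes highest in WT replicate 2, Gpi1, Pfkl, Pfkp, Tpi1 and Eno1 had no match in any window. Of those highest in a TET2KO library, Hk1 and Pfkm had a match, and Eno2 and Ldhb had none. A match is a description of the letters and no measure of binding.

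Among the enzymes, Aldoc, Hk3 and Hk2 had the widest ranges of CPM over the libraries. Hk1 and Hk2, the hexokinases that trap glucose as glucose 6-phosphate, stood at similar mean levels in WT, 34.0 ± 7.33 and 33.3 ± 22.9 TPM (SD, n = 3). Hk1 was 94.8, 82.7 and 94.2 CPM in WT and 94.9 and 91.1 CPM in TET2KO, the narrowest range of all members. Hk2, an inducible HIF target with 2 ACGTG matches in the window above, was 44.5, 134 and 26.3 CPM in WT and 37.4 and 58.3 CPM in TET2KO. Its log2 fold change was -0.51 (SE 0.70) with all libraries and 0.47 (SE 0.31) without WT replicate 2, so its direction depended on that library. The ratio of Hk1 to Hk2 in TPM was 1.49, 0.433 and 2.5 in WT and 1.77 and 1.09 in TET2KO, and WT replicate 2 was the only library with more Hk2 than Hk1.

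Hk3, a hexokinase of myeloid cells, was 20.4, 77.4 and 9.37 CPM in WT and 13.5 and 20.6 CPM in TET2KO. Per 100 CPM of the macrophage markers it was 0.207, 0.203 and 0.278 in WT and 0.275 and 0.225 in TET2KO, a 1.37-fold range beside 8.26-fold in CPM. Aldoc, an aldolase best known from brain, was 20.5, 108 and 8.80 CPM in WT and 11.5 and 17.2 CPM in TET2KO. Its log2 fold change of -1.67 (SE 1.07), the lowest of all members, was 0.013 (SE 0.41) without WT replicate 2. On the macrophage marker scale 4 of the 14 enzymes that were highest in WT replicate 2 had a narrower range than in CPM (Hk2, Hk3, Aldoa and Aldoc). The other 10 had a wider one, among them Gapdh (3.54-fold against 3.19-fold in CPM), Pkm (4.46-fold against 2.53-fold) and Eno1 (6.02-fold against 2.12-fold). The marker sum itself ran from 3374 to 38053 CPM, so an enzyme with a narrow range in CPM becomes wider by the division alone. The split of these enzymes therefore follows their ranges in CPM, and the part of macrophages was not tested. The libraries of Aldoc, Aldoa, Pkm and Pfkfb4 stood in the same order of CPM as the macrophage marker sum, which held for these 4 of 39 members (10.3%) and for 4.82% of all genes tested.

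**Figure D3:**
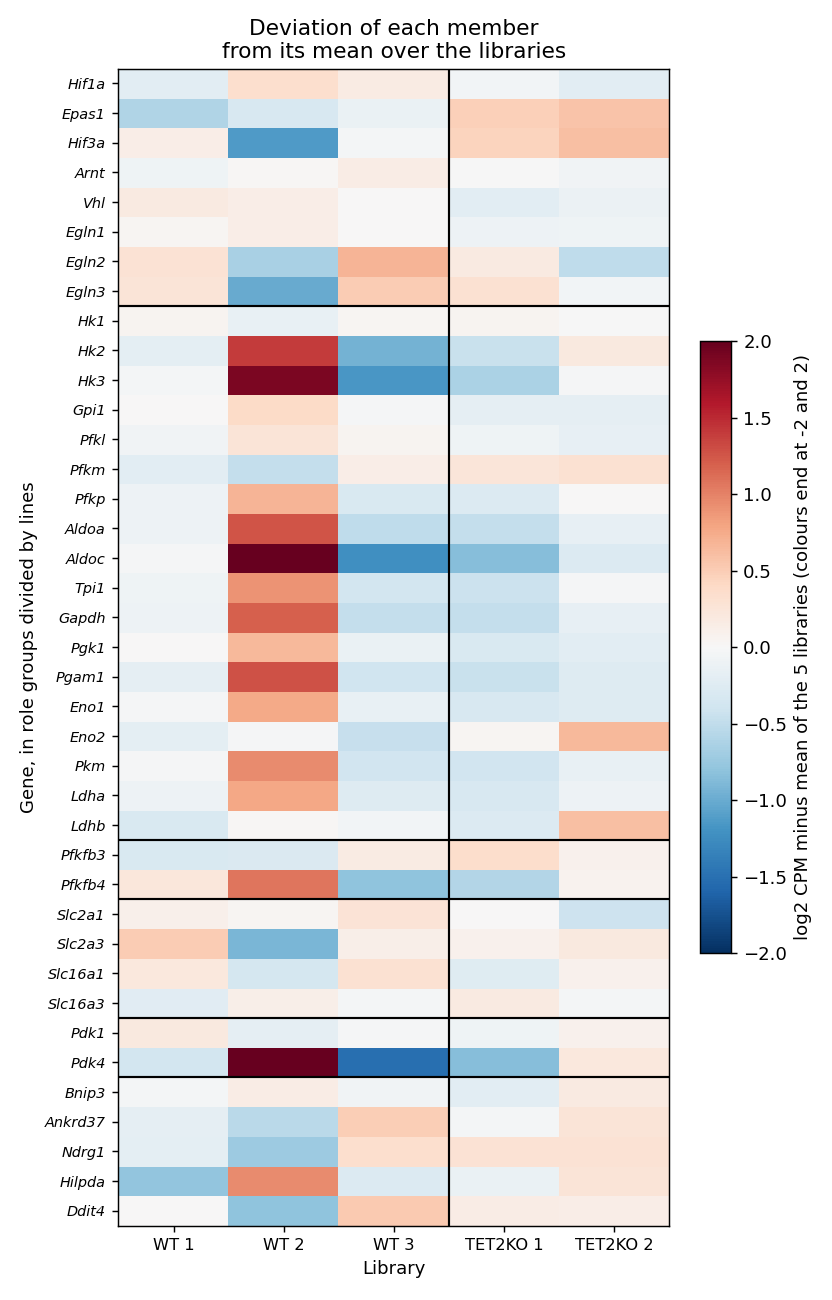
Colour gives the log2 CPM of each member in each library minus its mean over the 5 libraries (red above, blue below, colours ending at -2 and 2), with genes in rows by role (from top: HIF subunits and regulators, glycolytic enzymes, fructose-2,6-bisphosphate enzymes, transporters, pyruvate dehydrogenase kinases, other hypoxia genes) and libraries in columns. The WT 2 column is red for 15 of the 18 enzymes, while Epas1 is red in the TET2KO columns only.

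Gapdh and Aldoa had the highest mean TPM of the enzymes in both genotypes. Gapdh, which makes NADH while oxidising glyceraldehyde 3-phosphate, was 443, 822 and 333 TPM in WT and 357 and 444 TPM in TET2KO. Aldoa, the main aldolase, was 393, 766 and 290 TPM in WT and 319 and 394 TPM in TET2KO. Outside WT replicate 2 these values overlapped between genotypes, and the log2 fold changes without that library were -0.0016 (SE 0.19) for Gapdh and 0.013 (SE 0.19) for Aldoa, against -0.70 (SE 0.54) and -0.74 (SE 0.56) with it. Mice carry processed copies of several enzyme genes, Gapdh and Eno1 among them, and how multiply mapped reads were counted is not given in the sources used here, which leaves these levels uncertain to that extent.

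Pgk1, which makes the first ATP of the pathway, was 77.2, 121 and 69.9 CPM in WT and 62.2 and 66.7 CPM in TET2KO. Eno1, the main enolase, was 274, 473 and 252 CPM in WT and 223 and 233 CPM in TET2KO. Gpi1, which turns glucose 6-phosphate into fructose 6-phosphate, was 303, 391 and 296 CPM in WT and 266 and 265 CPM in TET2KO. For these enzymes both TET2KO libraries were lower in CPM than every WT library. The log2 fold changes were -0.47 (SE 0.27), -0.54 (SE 0.32) and -0.31 (SE 0.20), each with an adjusted p of 0.864 by edgeR, and without WT replicate 2 they were -0.16, -0.18 and -0.15. In TPM the values of Pgk1 overlapped (120, 142 and 106 in WT, 101 and 109 in TET2KO), while those of Gpi1 and Eno1 did not.

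The phosphofructokinase subunits form the enzyme of the committed step, and none passed the test. Pfkl, the subunit with the highest mean TPM in both genotypes, was 69.4, 87.6 and 76.1 CPM in WT and 68.7 and 65.2 CPM in TET2KO, with a log2 fold change of -0.22 (SE 0.17). Its TPM overlapped between genotypes, at 55.2, 52.5 and 58.9 in WT and 57.1 and 54.1 in TET2KO. Pfkm, the muscle-type subunit, was 8.69, 7.2 and 11.1 CPM in WT and 11.9 and 12.5 CPM in TET2KO, with both TET2KO libraries above WT and the smallest p among the enzymes (log2 fold change 0.44, SE 0.24, adjusted p = 0.864 by edgeR). Pfkp, the platelet-type subunit, overlapped between genotypes.

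At the end of the pathway, Ldha, which reduces pyruvate to lactate, was 231, 423 and 206 CPM in WT and 198 and 230 CPM in TET2KO. The log2 fold change of Ldha, whose window above had the most ACGTG matches of the sequences shown, was -0.42 (SE 0.35) with all libraries and 0.0012 (SE 0.14) without WT replicate 2. Ldhb, the isoform that favours the reverse reaction, was far lower, at 13.0, 12.4 and 15.1 TPM in WT and 13.9 and 25.5 TPM in TET2KO. The ratio of Ldha to Ldhb in TPM was 18.7, 27.2 and 13.9 in WT and 15.7 and 9.91 in TET2KO, with overlapping groups. Eno2, the neuronal enolase, was at 0.736, 0.845 and 0.604 CPM in WT and 0.876 and 1.38 CPM in TET2KO, and its groups did not overlap although TET2KO replicate 1 exceeded WT replicate 2 only slightly. The enzymes not given by library, Tpi1, Pgam1, Pkm and Pfkp, had log2 fold changes from -0.79 to -0.28 and were highest in WT replicate 2. Without that library, their log2 fold changes ran from -0.035 for Pkm to 0.11 for Pfkp.

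**Figure D4:**
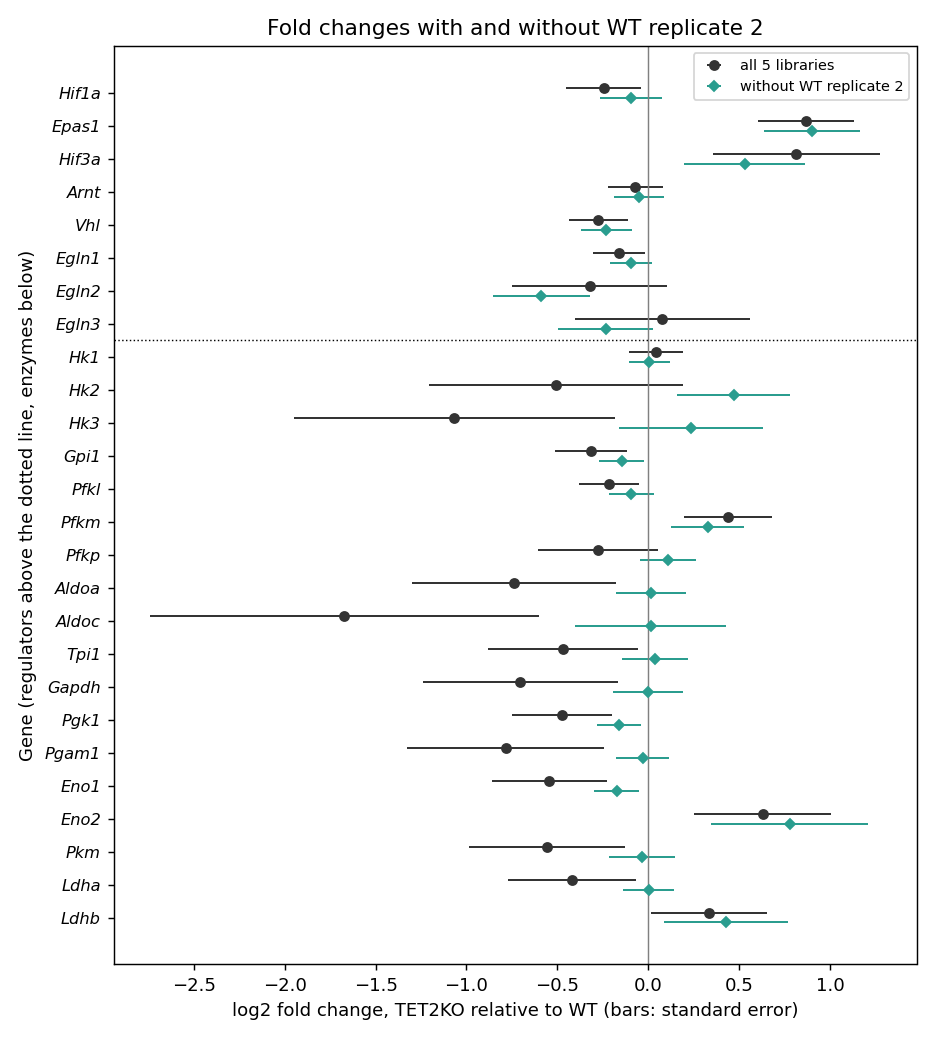
Points give the log2 fold change of TET2KO relative to WT for the 8 HIF subunits and regulators and the 18 glycolytic enzymes, with standard errors as bars, from all 5 libraries (black) and without WT replicate 2 (green). Epas1 stays at 0.87 and 0.90, while Aldoc moves from -1.67 to 0.013 and Hk2 from -0.51 to 0.47.

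The bifunctional enzymes that set fructose-2,6-bisphosphate, the activator of phosphofructokinase, differed from each other in layout. Pfkfb3, the isoform tied to endothelial sprouting, was 72.3, 73.0 and 100.4 CPM in WT and 114 and 95.3 CPM in TET2KO, with a log2 fold change of 0.35 (SE 0.21). Its groups overlapped in CPM but not in TPM, where it was 33.4, 25.4 and 45.1 in WT and 55.0 and 46.0 in TET2KO. Pfkfb4 was 69.0, 124 and 33.8 CPM in WT and 39.2 and 61.8 CPM in TET2KO, with a log2 fold change of -0.58 (SE 0.55), which became 0.012 (SE 0.37) without WT replicate 2. The ratio of Pfkfb3 to Pfkfb4 in TPM was 0.675, 0.381 and 1.92 in WT and 1.87 and 0.994 in TET2KO, so the isoform with more transcript differed among WT libraries.

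The 4 transporters had a median log2 fold change of -0.019, with 2 above 0. Slc2a1, the gene of the main endothelial glucose carrier, was 84.3, 81.1 and 95.8 CPM in WT and 79.1 and 59.1 CPM in TET2KO, lower in both TET2KO libraries, with a log2 fold change of -0.33 (SE 0.19) and an adjusted p of 0.864 by edgeR. In TPM its groups overlapped. Slc2a3, a glucose carrier of high affinity, was lowest in WT replicate 2, and the ratio of Slc2a1 to Slc2a3 in TPM was 3.81, 9.88 and 5.72 in WT and 4.82 and 3.34 in TET2KO. Of the lactate carriers, Slc16a1 was 34.4, 23.4 and 36.7 CPM in WT and 25.2 and 31.6 CPM in TET2KO. Slc16a3, the lactate exporter of glycolytic cells, was 67.1, 85.2 and 76.5 CPM in WT and 88.6 and 76.4 CPM in TET2KO. Both overlapped between genotypes in CPM, and their log2 fold changes were -0.15 (SE 0.25) and 0.11 (SE 0.17).

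The pyruvate dehydrogenase kinases, which keep pyruvate out of mitochondrial oxidation, included the member with the widest range. Pdk4, a kinase induced by fatty acids and fasting, was 8.69, 63.4 and 3.91 CPM in WT and 6.16 and 13.0 CPM in TET2KO, a 16.2-fold range. WT replicates 2 and 3 were its highest and lowest libraries, so the TET2KO values lay inside the WT spread. Its log2 fold change was -1.40 (SE 1.21) with all libraries and 0.65 (SE 0.49) without WT replicate 2. Pdk1, a direct HIF target, ranged over only 1.30-fold, at 83.9, 64.3 and 72.0 CPM in WT and 68.6 and 77.1 CPM in TET2KO, with a log2 fold change of -0.010 (SE 0.18).

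The other hypoxia-responsive genes had a median log2 fold change of 0.13, with 3 of 5 above 0, and all 5 overlapped between genotypes in CPM. Ndrg1, a stress-responsive gene, was 24.0, 16.7 and 34.6 CPM in WT and 33.8 and 33.7 CPM in TET2KO. In TPM the groups of Ndrg1 did not overlap, at 12.7, 6.67 and 17.8 in WT and 18.7 and 18.7 in TET2KO. Ankrd37, a HIF target, was 8.73, 6.83 and 14.0 CPM in WT and 9.73 and 11.9 CPM in TET2KO. Ddit4, an inhibitor of mTORC1 signalling, was 36.4, 20.8 and 52.2 CPM in WT and 40.3 and 40.0 CPM in TET2KO. In CPM, each of these genes was lowest in WT replicate 2 and highest in WT replicate 3. Of all genes tested, 32.9% were lowest in WT replicate 2 and 23.3% were highest in WT replicate 3. The summed level of 5 B cell markers, none at 0, had its lowest and highest values in the same libraries, at 3174, 968 and 4029 CPM in WT and 2737 and 1684 CPM in TET2KO. So did the sum of 6 T and NK cell markers, at 201, 105 and 233 CPM in WT and 197 and 169 CPM in TET2KO. The part of either cell type was not tested. Hilpda, which encodes a lipid droplet protein, was instead highest in WT replicate 2, with 167 CPM, beside 50 and 71.6 CPM in the other WT libraries and 78.9 and 103 CPM in TET2KO. Without WT replicate 2 its log2 fold change was 0.61 (SE 0.23), against -0.08 (SE 0.52) with it. The edgeR p without that library was 0.0433 unadjusted and 0.485 adjusted. An unadjusted p under 0.05 was reached by 1876 of 18453 genes (10.2%) in that fit. Bnip3, a mitophagy receptor, overlapped, with a log2 fold change of -0.010 (SE 0.21).

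Other genes of the same pathways were counted for comparison, from lists written with earlier results of these data known. Of 40 further HIF pathway genes, 13 had a log2 fold change above 0 with a median of -0.15, none passed the test, and 5 had an unadjusted p under 0.05 by edgeR, beside 5.86% of all genes. All 5 were higher in TET2KO, as were 997 of the 1098 genes with such a p over the whole fit. Plod2, which hydroxylates lysine in collagen, was 6.76, 7.33 and 7.02 CPM in WT and 15 and 14.4 CPM in TET2KO, a log2 fold change of 1.06 (SE 0.18) and an adjusted p of 0.740. Vegfa, the angiogenic ligand, was 163, 172 and 282 CPM in WT and 415 and 398 CPM in TET2KO, a log2 fold change of 0.98 (SE 0.28). Loxl2, a collagen cross-linking oxidase, and Flt1, a receptor of the same ligand, had log2 fold changes of 1.13 (SE 0.29) and 0.75 (SE 0.22). P4ha2, a collagen prolyl hydroxylase, had 0.91 (SE 0.35). Of the epithelial markers, whose cells also make Vegfa, 7 of 7 had a log2 fold change above 0. Both TET2KO libraries lay above every WT library for 3 of them. Their sums overlapped, at 878, 738 and 427 CPM in WT and 847 and 1719 CPM in TET2KO, with none at 0. Of the mesothelial markers, 3 of 3 had both TET2KO libraries above every WT library (median log2 fold change 1.68). Their sums were low, at 5.47 to 8.02 CPM in WT and 17.5 to 26.5 CPM in TET2KO, with none at 0. Of the fibroblast markers and of the smooth muscle and pericyte markers, 4 of 5 each had a log2 fold change above 0. Both TET2KO libraries lay above every WT library for 1 fibroblast marker and for 2 smooth muscle and pericyte markers. The sums of both lists overlapped between genotypes. The part of these markers and of the endothelial markers in the levels of the HIF pathway genes, Epas1 included, was not tested.

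Of 30 further genes of glycolysis and pyruvate metabolism, 25 passed the filter, 9 of these had a log2 fold change above 0, and the median was -0.17. None had an unadjusted p under 0.05 by edgeR. Mpc1, a subunit of the mitochondrial pyruvate carrier, had the smallest p and was 30.5, 74.2 and 33.6 CPM in WT and 28.6 and 26.9 CPM in TET2KO. WT replicate 2 was again the highest library, as it was for most of the enzymes above.

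The authors' deposited table of their own comparison gave fold changes for 18019 genes. For 100% of them its log2 fold change was within 0.01 of the ratio of WT 3, TET2KO 1 and TET2KO 2 over WT 1 and WT 2. Only 2.75% lay within 0.01 of the ratio of TET2KO over WT by the labels. Its values therefore do not correspond to the labelled genotypes and are set beside the members' values only as a record. Whether the WT label of replicate 3 or the grouping in that table is in error cannot be told from the sources used here, and an error in the label would alter every WT mean, fold change and overlap given above. Without WT replicate 3 the median log2 fold change of the enzymes was -0.64 and that of the regulators 0.020, and 5 members (Epas1, Pfkfb3, Ndrg1, Pfkm and Aldoc) had an unadjusted p under 0.05 by edgeR, beside 1407 of 18430 genes (7.63%). None had an adjusted p under 0.05. In the authors' deposited table Epas1 had a log2 fold change of 0.81 with an adjusted p of 0.122. Aldoc, at -2.34 with an adjusted p of 0.023 in the authors' deposited table, was the only member in their short list of 217 genes. Aldoc was at 20.5 and 108 CPM in the libraries that comparison put on one side and at 8.80, 11.5 and 17.2 CPM in those it put on the other.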

How the data were processed

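Poly(A) RNA of 3 WT and 2 TET2KO mouse lung endothelial libraries was analysed, grouped by the labelled titles. The authors' tools, per the submitters' processing notes, were Trimmomatic 0.36, STAR 2.5.2b, Subread 1.5.2 with featureCounts, and DESeq2 (version not given in the sources used here), on build GRCm38. The strand setting is not given in the sources used here, and 17 of the 39 members overlap a GENCODE gene annotated on the other strand, whose reads could then not be told apart. The authors deposited raw counts per gene and TPM values. Per the file headers, the authors' comparison table held log2 fold changes, p-values, and counts divided by size factors, a normalized signal. Rows without a symbol numbered 174.

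Counts were tested with edgeR 4.0.16 in R 4.3.3 (quasi-likelihood F test, TMM scaling, filterByExpr, genotype only), with p-values adjusted over the 18727 genes tested at a threshold of 0.05. SE is the log2 fold change over the square root of F. Log2 CPM in the heatmap used a prior count of 2. The biological coefficient of variation was 0.339. DESeq2 1.42.0, limma 3.58.1 on log2 TPM, other scalings and filters, a replicate block and leaving out each library were alternatives. The procedure was tested on simulated data, drawn from the mean level of each gene with changes planted in some genes. No simulated library was set apart as WT replicate 2 was. The recovery of the planted changes is not given here. No replicate pair agreed within sampling noise.

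The members and all lists were chosen with earlier results of these data known. Values in every library are given for the HIF regulators, for members whose groups did not overlap, for the 3 smallest p in each other role and for the highest TPM of each isozyme family. Hk2, Hk3, Aldoc, Gapdh, Ldhb, Slc2a3 and Hilpda were added after their values were seen.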

Additional observations from a re-analysis of the deposited data

How the results depend on the processing

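No member was called under any alternative, and Epas1 lay higher in TET2KO in all of them (log2 0.75 to 1.09, lowest adjusted p 0.115 with DESeq2). DESeq2 called 60 genes. Members below WT in both TET2KO libraries numbered 4 with upper-quartile factors and 3 with library totals, beside 7.1% and 4.29% of all genes tested. The median of the HIF regulators was 0.025 with library totals and 0.10 with either TPM pseudocount. Of 584 member values, 524 kept direction and side and 60, in 23 members, reversed, all without passing the threshold. The reversed log2 fold changes were, for Arnt, 0.010 (upper quartile), 0.066 (totals), 0.14 (TPM + 1) and 0.14 (TPM + 0.1); for Pdk1, 0.0045 (RLE), 0.063, 0.12, 0.033 (no filter), 0.0043 (1 CPM in 2 libraries), 0.0044 (DESeq2), 0.20 and 0.21; for Bnip3, in that order, 0.0048, 0.077, 0.14, 0.035, 0.0063, 0.0046, 0.18 and 0.19. Hilpda had 0.052 (upper quartile), 0.13 (totals), 0.31 and 0.31 (TPM). On TPM alone, Egln1 had 0.052 and 0.053, Pfkl 0.0030 and 0.0031, Slc16a1 0.073 and 0.078, and Hk2 0.0055 with a pseudocount of 0.1. The cause was not tested.

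With each library left out in turn, members above WT numbered 4 to 8 (8 without WT 3) and below WT 8 to 12 (12 without WT 3 or TET2KO 2), beside 17.2% to 22.2% and 16.3% to 22.9% of all genes, since fewer libraries leave less room for overlap. Members with an unadjusted p under 0.05 numbered 0 to 5, beside 1.45% to 10.2% of all genes (5 and 7.63% without WT 3). The regulators' median ran from -0.15 to 0.020 (without WT 3) and the enzymes' from -0.64 to 0.0092 (without WT 2). Ranges of log2 fold change were -0.12 to 0.020 for Arnt, -0.72 to 0.020 for Egln2, -0.23 to 0.41 for Egln3, -0.87 to 0.47 for Hk2, -1.50 to 0.23 for Hk3, -0.44 to 0.11 for Pfkp, -1.02 to 0.013 for Aldoa, -2.14 to 0.013 for Aldoc, -0.68 to 0.035 for Tpi1, -0.59 to 0.0012 for Ldha and -0.17 to 0.70 for Ldhb. They were -0.94 to 0.012 for Pfkfb4, -0.16 to 0.45 for Slc2a3, -0.32 to 0.0076 for Slc16a1, -0.0016 to 0.23 for Slc16a3, -0.10 to 0.10 for Pdk1, -2.04 to 0.65 for Pdk4, -0.22 to 0.17 for Bnip3, -0.051 to 0.51 for Ankrd37, -0.39 to 0.61 for Hilpda and -0.12 to 0.52 for Ddit4. The values above 0 of Hk2, Hk3, Pfkp, Aldoa, Aldoc, Tpi1, Ldha, Pfkfb4 and Pdk4 came without WT 2.

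With a replicate block, 0 members were called and Egln2 was at 0.017. An unadjusted p under 0.05 by edgeR was reached by 15 of the 39 members, beside 2982 of all 18727 genes tested (15.9%). WT 3 is the only library with its number, so in that fit it adds nothing to the genotype effect. Deviations of libraries that share a number correlated at 0.22 and 0.493 in 2 pairs, too few to show that numbers pair libraries. Those of WT 3 and TET2KO 1, which have different numbers, correlated at 0.455. With 2 TET2KO libraries, their deviations are mirror images, so each correlation recurs with the opposite sign. The legacy spread of edgeR, added after seeing the data, changed no call. Depth limits the least expressed members, such as Eno2 with 19 to 44 counts per library.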
